A study of Homo sapiens with 6 samples.

Results

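The ETS transcription factors described here are 10 genes, ETV1, ETV4, ETV5, ETV6, ETS1, ETS2, ELK1, ELK3, ELK4 and GABPA. They were chosen by name from the array rows that the platform's probe table gives exactly 1 gene symbol, and each of the 10 had 1 row, out of 33616 genes with such a row. RNA came from H295R, a steroid-producing cell line derived from a human adrenocortical carcinoma, which carries an activating beta-catenin mutation. The cells were exposed for 24 h to CX-4945 at 5 µM (3 arrays) or to its solvent DMSO alone (3 arrays). CX-4945, also called silmitasertib, is an inhibitor of protein kinase CK2 that also acts on the CLK kinases of splicing factors. All samples are 1 cell line, and the labels do not say whether replicates were grown separately, so the p-values reflect the spread between arrays, part of which may be technical.

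ETS proteins share a winged-helix DNA-binding domain that recognises a GGAA core. Many of them are substrates of the kinase ERK at the end of the RAS pathway, and some are also its target genes. The PEA3 subfamily (ETV1, ETV4 and ETV5) is induced by ERK signalling in many cell types: the repressor Capicua (CIC) sits on these genes and leaves when ERK phosphorylates it. The ternary complex factors (TCF) ELK1, ELK3 and ELK4 sit beside the serum response factor SRF on immediate early genes such as EGR1. ETS1 and ETS2 are activators with an ERK site next to a Pointed domain. ETV6, also called TEL, is a repressor, and GABPA pairs with GABPB proteins at promoters of housekeeping and mitochondrial genes.

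Values are intensities on the scale the authors deposited, and each difference is a log2 difference, CX-4945 minus DMSO. Background was set at the 95th percentile of 372 olfactory receptor gene means, an intensity of 84.3 (log2 6.40). The array medians over all rows were 45.8 to 46.5 with CX-4945 and 40.7 to 43.1 with DMSO. CX-4945 replicate 2 stood apart from its group, with correlations over all rows of 0.979 and 0.980 with the other treated arrays, against 0.986 between those; values without it are given beside the changed members. All 6 adrenocortical marker genes looked at, NR5A1 among them, lay above background in both groups, with a summed intensity of 15403 to 21937 with CX-4945 and 80374 to 88209 with DMSO. That sum rests mostly on the brightest of them. Of the 6, 5 were called lower, while CYP21A2 was called higher (log2 difference 0.83, limma adjusted p = 0.0167). Of 4 endothelial markers only VWF was above background. Of 3 measured leukocyte markers, with a median log2 difference of -0.16, CD14 was higher (log2 difference 1.68, limma adjusted p = 1.54e-04, with a DMSO mean below background), CD3E gave -0.41 and did not pass, and PTPRC was below background in both groups. Of 4 fibroblast markers, with a median of -0.25, DCN was higher (log2 difference 0.81, limma adjusted p = 0.00879), while COL1A1 (-0.21), COL1A2 (-0.28) and PDGFRA (-0.60, below background in both groups) did not pass. The part of these marker genes in the results below was not tested.

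Of the 10 ETS members, 3 were higher with CX-4945 (ETV5, ETS2 and ELK4), 1 was lower (ETV1) and 6 did not pass the test. The largest change among the 10 was that of ETV5, up 7.10-fold, followed by ETS2, up 3.91-fold, ETV1, down 2.43-fold, and ELK4, up 1.65-fold. The test was limma with a Benjamini-Hochberg adjusted p below 0.05 over all 33616 genes, by which 22.8% of all genes were called, 10.3% higher and 12.5% lower (3469 and 4196 genes). Other scalings shifted this balance to 2624 higher and 5271 lower after quantile normalization, and to 2539 and 5291 with equal array medians, while the 4 calls among the members stood. Among the 17331 genes above background in at least 1 group, 39.2% were called, so 4 of 10 is a share close to the background. All 3 treated arrays lay on one side of all 3 DMSO arrays in 5 of the 10 members, compared with 36.0% of all genes. The median log2 difference of the 10 members was 0.09, beside 0.02 over all genes. In bulk RNA of this kind, fewer cells that express a gene and less of its RNA per cell cannot be told apart.

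**Figure D1:**
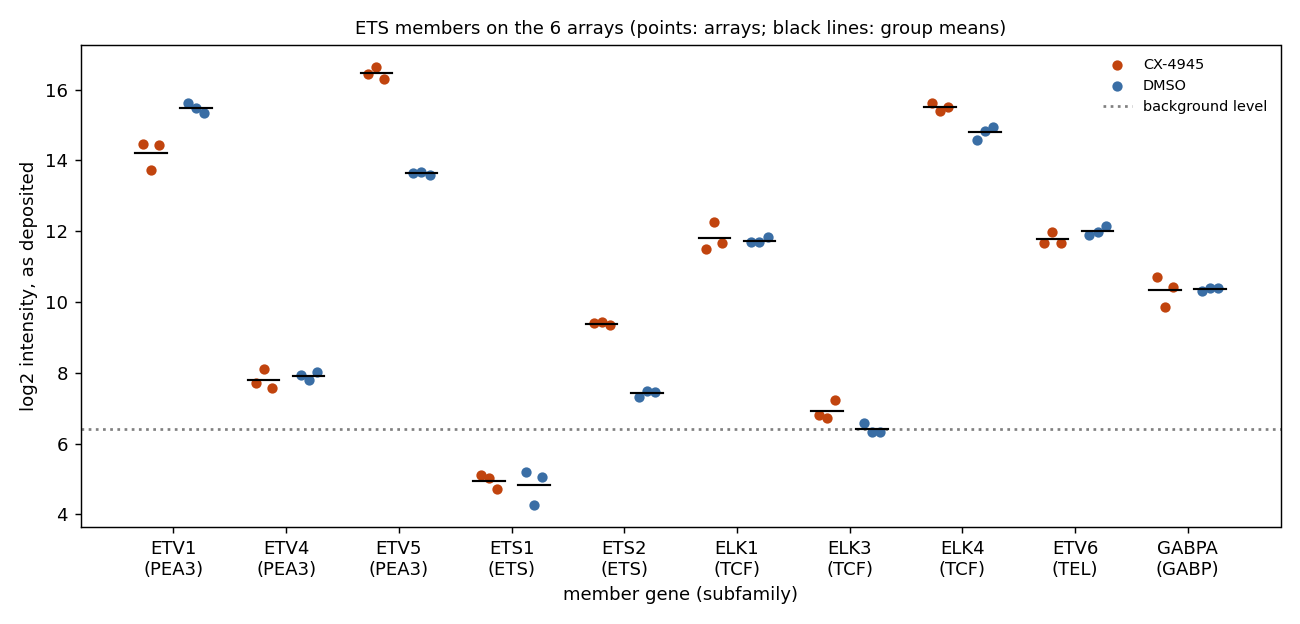
Log2 intensity (vertical axis, as deposited) of the 10 ETS members (horizontal axis, subfamily in brackets), with CX-4945 arrays left of DMSO arrays; points are arrays, black lines are group means and the dotted line is the background level of 6.40. The groups are apart for ETV1, ETV5, ETS2, ELK3 and ELK4, and ETS1 lies under the background line in both groups.

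The 3 PEA3 genes did not move together. ETV5 had intensities of 88741, 102779 and 80734 on the CX-4945 arrays, against 12717, 13158 and 12286 on the DMSO arrays. Every treated array was several times above every DMSO array, and the DMSO values lay within a narrow band. The log2 difference was 2.83 ± 0.13 (SE, 3 arrays per group; limma adjusted p = 2.44e-08), and 2.73 without CX-4945 replicate 2. Only 100 of the 33616 genes had a higher log2 difference.

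ETV1 went the other way. Its intensities were 22429, 13656 and 21950 on the CX-4945 arrays, against 50552, 45955 and 41721 on the DMSO arrays. The groups did not overlap, and CX-4945 replicate 2 was the lowest of all. The log2 difference was -1.28 ± 0.18 (SE; limma adjusted p = 2.14e-04), and -1.05 without that array.

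ETV4, the founding PEA3 gene, had intensities of 210.5, 273.4 and 190.8 with CX-4945 and 242.8, 220.5 and 260.1 with DMSO. The groups overlapped, with the treated arrays holding both the highest and the lowest value. The log2 difference was -0.11, with a 95% confidence interval of -0.56 to 0.33 (limma adjusted p = 0.775), an interval that leaves out any change of the size seen in ETV1 or ETV5. Measured within each array, the log2 ratio of ETV5 to ETV1 was 4.11 higher with CX-4945 than with DMSO (SD between arrays 0.57 with CX-4945 and 0.12 with DMSO), and that of ETV5 to ETV4 was 2.94 higher (SD 0.10 and 0.17).

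**Figure D2:**
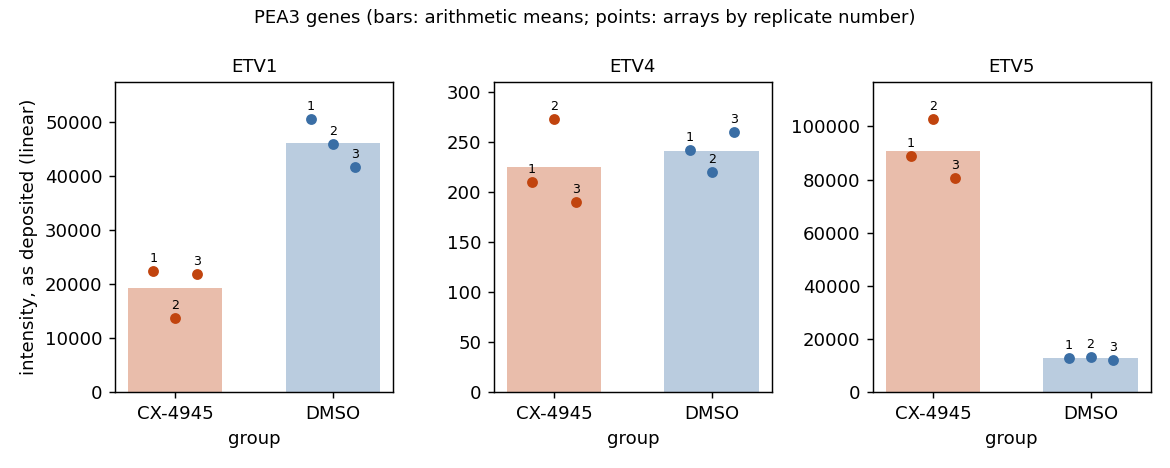
Intensities on a linear axis starting at 0 (each panel has its own scale) of ETV1, ETV4 and ETV5 in CX-4945 and DMSO arrays; bars are arithmetic means and numbered points are arrays. ETV1 is lower with CX-4945, ETV5 is higher, and the groups of ETV4 overlap.

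As a group the PEA3 genes therefore looked like the other members only on average. The mean log2 difference of ETV1, ETV4 and ETV5 was 0.48 with an SD between the 3 genes of 2.12, beside 0.44 with an SD of 0.75 for the other 7 members. Per array, the mean log2 value of the PEA3 genes minus that of the other 7 was 2.75, 2.73 and 2.69 with CX-4945, against 2.74, 2.75 and 2.59 with DMSO. The groups overlapped and their means differed by 0.03, which is less than the SD of 0.09 between DMSO arrays. This average hides the opposite changes of ETV5 and ETV1, and no p is given because the members were chosen with earlier results known.

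The promoters of the members were searched in RefSeq windows of GRCh38.p14 that run from 250 bases before to 50 bases after a start; 7 of the 10 members had windows, 14 in all, and ETV4, ETV5 and ETS1 had none. The motif of CIC was searched as the octamers TGAATGAA, TGAATGGA, TCAATGAA and TCAATGGA on both strands, which 3.77% of all 35116 windows hold. Among the members it was found in 1 of the 6 ETV1 windows. Of the 10 genes listed below as CIC targets 8 had windows, and 4 of these genes held an octamer, DUSP6, SPRED3, VGF and SHC4. All 10 listed targets, among which the PEA3 genes are not counted, were called higher, so a rise does not set the octamer genes apart. SPRY4, SPRED1, SPRED2 and SHC3 had windows without an octamer and log2 differences of 4.13, 0.76, 3.22 and 0.76. The 3.77% is a share of windows, and a gene can have several. In the other lists below, an octamer was also found for KSR1 and CIC, which were lower, for FOSB, which was higher, and for ATXN1, EPHA2 and SPDEF, which did not pass. The stretches before the start are shown for ETV1, which fell, and for listed CIC targets that rose, with the octamer in capitals. Its letters in ETV1 differ from those in the other genes shown, but they also differ between DUSP6 and SPRED3, which both rose. The part of these letters in the changes was not tested. ETV1 is from chr7:13991523-13991570 (minus strand), DUSP6 from chr12:89352502-89352545 (minus strand), SPRED3 from chr19:38389579-38389626 (plus strand) and VGF from chr7:101165632-101165679 (minus strand). VGF holds further matches in a run of TTCA repeats, and the SHC4 match lies after the start, so neither is printed.
ETV1: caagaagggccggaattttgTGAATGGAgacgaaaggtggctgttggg
DUSP6: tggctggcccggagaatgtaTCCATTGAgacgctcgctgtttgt
SPRED3: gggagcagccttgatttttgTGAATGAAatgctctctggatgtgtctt
VGF: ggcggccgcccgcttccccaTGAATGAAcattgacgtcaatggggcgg
The octamer of ETV1 starts 125 bases before the start of its window, that of DUSP6 24 bases, that of SPRED3 192 bases and that of VGF 90 bases before. DUSP6 carries the reverse complement. A match is a description of these letters and does not show that CIC binds there, and the ETV1 row of the array does not tell apart RNAs from its different starts.

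Of the ETS pair, ETS2 rose and ETS1 lay below background. ETS2 had intensities of 671.5, 686.1 and 652.2 with CX-4945, against 159.4, 179.2 and 175.3 with DMSO. The treated arrays lay close together and far above the DMSO arrays. The log2 difference was 1.97 ± 0.18 (SE; limma adjusted p = 6.09e-06), and 1.95 without CX-4945 replicate 2. ETS1 had intensities of 34.6, 32.8 and 26.0 with CX-4945, against 36.7, 19.1 and 33.2 with DMSO. All 6 values lay below the background level, and the log2 difference was 0.11 (limma adjusted p = 0.817).

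Among the ternary complex factors, ELK4 rose. Its intensities were 50827, 43120 and 46206 with CX-4945, against 24534, 29293 and 31622 with DMSO. The lowest treated array was above the highest DMSO array. The log2 difference was 0.72 ± 0.13 (SE; limma adjusted p = 0.00153), and 0.77 without CX-4945 replicate 2.

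ELK3 lay near background, with intensities of 112.6, 105.6 and 148.7 with CX-4945, against 96.1, 80.9 and 80.3 with DMSO. The groups did not overlap, but the log2 difference of 0.50 (95% confidence interval 0.04 to 0.96) did not pass after adjustment (limma adjusted p = 0.118). It passed in 1 alternative, with array weights (log2 difference 0.60, limma adjusted p = 0.0392).

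ELK1 had intensities of 2882, 4903 and 3252 with CX-4945, against 3280, 3329 and 3618 with DMSO. CX-4945 replicate 2 was the highest array and the other treated arrays were the lowest, so the groups overlapped. The log2 difference was 0.07, with a 95% confidence interval of -0.36 to 0.51 (limma adjusted p = 0.856).

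ETV6 had intensities of 3255, 4062 and 3244 with CX-4945, against 3812, 4048 and 4517 with DMSO. The groups overlapped through CX-4945 replicate 2, and the log2 difference of -0.23 (95% confidence interval -0.59 to 0.12) did not pass (limma adjusted p = 0.375). GABPA had intensities of 1680, 929.3 and 1363 with CX-4945, against 1262, 1337 and 1336 with DMSO. The treated arrays lay on both sides of the closely spaced DMSO arrays, and the log2 difference was -0.03 (95% confidence interval -0.50 to 0.44, limma adjusted p = 0.952).

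The ETS consensus CCGGAAGT, searched on both strands, was found in 4.14% of all promoter windows and in those of 2 members, ELK4 and GABPA, shown here with the match in capitals because ELK4 rose and GABPA did not pass the test. ELK4 is from chr1:205632012-205632053 (minus strand), with the match starting 22 bases before the start. GABPA is from chr21:25734885-25734932 (plus strand), where the reverse complement starts 67 bases before the start.
ELK4: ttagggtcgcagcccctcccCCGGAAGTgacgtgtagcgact
GABPA: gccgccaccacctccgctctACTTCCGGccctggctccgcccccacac
Neither the AP-1 site TGANTCA, held by 7.71% of all windows, nor the C/EBP-ATF site TGATGNAAT, held by 0.991%, was found in the windows of the members.

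The other 18 ETS genes of the human family were all measured, and 11 of them lay below background in both groups. ETV3, a repressor, was higher with intensities of 4440, 5144 and 4609 with CX-4945, against 3023, 3577 and 3064 with DMSO (log2 difference 0.56, limma adjusted p = 0.0206). SPI1, the myeloid factor PU.1, was also called higher (log2 difference 0.79, limma adjusted p = 0.0242), and no gene of the 18 was called lower. The mean of SPI1 lay just above background with CX-4945 and below it with DMSO. Its treated intensities were 81.2, 115.6 and 70.2, so only CX-4945 replicate 2 was above the background of 84.3. The call of ETV3 was lost without CX-4945 replicate 3, DMSO replicate 1 or DMSO replicate 3 (limma adjusted p = 0.059 to 0.0925), and that of SPI1 without CX-4945 replicate 2 or any 1 DMSO array (0.0508 to 0.0974). Both also depended on how arrays were scaled. With quantile normalization 0 of the 18 were higher and 3 lower, namely ERG (limma adjusted p = 0.0317), ELF4 (0.0375) and the ERK-regulated repressor ERF (0.04), and with equal array medians 0 were higher and the same 3 lower. On the deposited scale, ERF had intensities of 407.1, 708.9 and 480.1 with CX-4945, against 752.2, 765.3 and 774.5 with DMSO (log2 difference -0.56, limma adjusted p = 0.0887). Without CX-4945 replicate 2, ERF (limma adjusted p = 0.0035) and ELF4 (0.0401) were called lower, and without CX-4945 replicate 1 ERG was (0.0364). On the mean of its rows ELF4 gave a log2 difference of -0.05 (limma adjusted p = 0.903), against -0.45 on its brightest row. ELF1 and ELF2 differed by 0.06 and 0.04 on the log2 scale. Over all 28 ETS genes, the member genes ETV5 and ETS2 had the highest log2 differences and ETV1 the lowest.

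**Figure D3:**
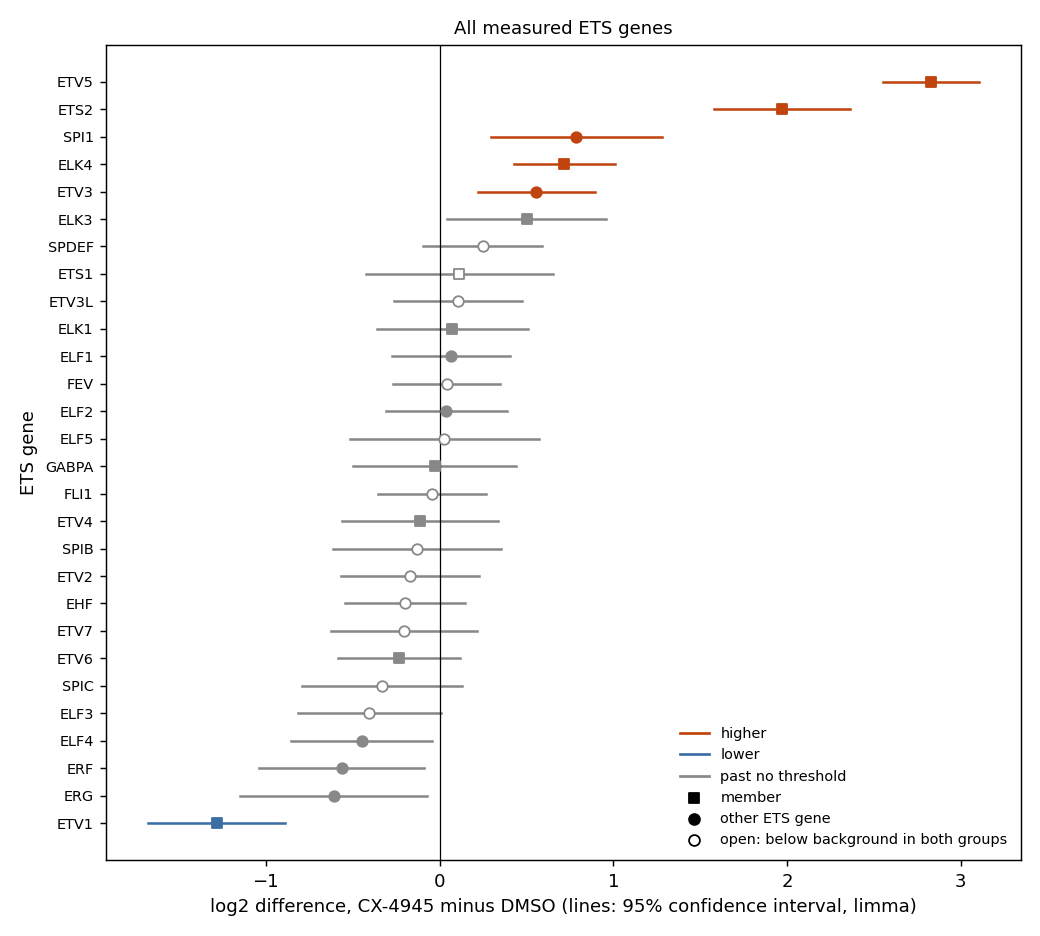
Log2 difference, CX-4945 minus DMSO (horizontal axis), with the 95% confidence interval from limma as lines, for the 28 measured ETS genes (vertical axis); squares are the 10 members, circles the other 18, and open symbols lie below background in both groups. ETV5 and ETS2 stand apart on the right and ETV1 on the left.

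Genes that act on PEA3 RNA or protein changed in both directions. This list, like those below, was drawn up with earlier results of these data known. A count in such a list is set beside the 10.3% higher and 12.5% lower of all genes. Among the 17331 genes above background in at least 1 group, 39.2% were called, with 2980 higher and 3818 lower. Of 7 genes of PEA3 repression and turnover, all above background, 2 were higher and 3 lower, with a median log2 difference of -0.55. CIC, the repressor of PEA3 genes, had intensities of 130.1, 135.2 and 148.3 with CX-4945, against 204.1, 256.7 and 224.0 with DMSO. The treated arrays were all lower (log2 difference -0.72 ± 0.19 SE, limma adjusted p = 0.0167), but the call was lost without DMSO replicate 2 (limma adjusted p = 0.0784) or DMSO replicate 3 (0.0531). Its partner ATXN1 did not pass (log2 difference -0.55, limma adjusted p = 0.0709), though it did with quantile normalization (0.0156), equal array medians (0.0315) and both filters on dim genes (0.0379 and 0.0396). On the mean of its rows ATXN1 gave -0.21 (limma adjusted p = 0.582), and ATXN1L gave 0.25.

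The ubiquitin ligase built of COP1, DET1, DDB1 and CUL4A marks ETV1, ETV4 and ETV5 proteins for degradation. DET1 had intensities of 149.9, 210.8 and 143.8 with CX-4945, against 771.1, 1276 and 1209 with DMSO. DET1 fell, with a log2 difference of -2.68 on its brightest row (limma adjusted p = 5.39e-06) and of -1.44 on the mean of its rows (5.49e-04). DDB1, the adaptor of the ligase, fell 4.08-fold (limma adjusted p = 1.71e-05). COP1, its substrate-binding subunit, rose 1.67-fold (limma adjusted p = 0.00838), and the scaffold CUL4A rose 1.71-fold (limma adjusted p = 0.00338). The subunits of this one complex thus went opposite ways. Protein was not measured.

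Of 15 listed genes of the RAS-ERK kinase cascade 10 were analysed here, and 1 was higher and 3 lower, with a median log2 difference of 0.09. All 10 lay above background and 6 did not pass, so the share called is close to the 39.2% of genes above background. MAP2K1, which encodes the ERK kinase MEK1, had intensities of 7859, 9864 and 8739 with CX-4945, against 3323, 3500 and 3305 with DMSO. It rose 2.60-fold (limma adjusted p = 2.49e-05). The scaffold KSR1 fell, with a log2 difference of -1.71 on its brightest row (limma adjusted p = 1.14e-04) and of -1.06 on the mean of its rows (0.00636). The RAF kinase ARAF had one of -1.58 (limma adjusted p = 1.05e-04). MAPK3, which encodes ERK1, was called lower (log2 difference -0.60, limma adjusted p = 0.0236), and 6 of 15 alternatives ended that call, among them leaving out any array except CX-4945 replicate 2 (limma adjusted p of at most 0.103).

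Most of the listed genes that ERK signalling is known to induce were higher, as ETV5 was and ETV1 was not. Of 8 ERK output genes, 6 were higher and none lower, with a median log2 difference of 1.82. Of 10 genes listed as CIC targets, 4 of which are also ERK output genes, all 10 were higher on the deposited scale (median 2.78), with quantile normalization, with equal array medians and without CX-4945 replicate 2. That list leaves out the PEA3 genes, on which CIC also sits. Of these, ETV5 was higher (log2 difference 2.83), ETV1 was lower (-1.28) and ETV4 did not pass (-0.11). Leaving out DMSO replicate 3 ended the call of SPRED1 (limma adjusted p = 0.0684). SHC3 was below background in both groups, so its rise (log2 difference 0.76) is uncertain, and filters at the background level and at the median gene level left 9 and 7 of the 10 called. SPRY4, an inhibitor of receptor tyrosine kinase signalling, had intensities of 924.9, 2018 and 1287 with CX-4945, against 60.1, 85.3 and 87.7 with DMSO, so its fold of 17.5 depends on the background floor. DUSP4, a nuclear ERK phosphatase, rose 10.3-fold, with both groups above background (limma adjusted p = 7.57e-07). The cyclin gene CCND1 (log2 difference 3.18) and the adaptor gene SHC4 (3.28) rose, with DMSO values below background and limma adjusted p of 4.31e-06 and 4.22e-06.

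The promoter-octamer genes DUSP6, SPRED3 and VGF were among the rises, as were SPRY4 and SPRED2, whose windows held no octamer. DUSP6, the cytoplasmic ERK phosphatase, had intensities of 1932, 2924 and 2780 with CX-4945, against 1045, 938.4 and 904.8 with DMSO, a rise of 2.61-fold (limma adjusted p = 2.04e-04). VGF, a neuropeptide precursor gene, rose 2.86-fold (limma adjusted p = 1.23e-04), and SPRED3, a Spred inhibitor gene, had a log2 difference of 2.38, with DMSO values below background (limma adjusted p = 7.31e-06). EPHA2 and EPHA4, the ERK output genes that did not pass, lay below background in both groups.

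Partners and target genes of the ternary complex factors were split. SRF, which binds DNA with them, differed by a log2 difference of 0.12 (limma adjusted p = 0.789), and its other partner MRTFA by 0.51 (0.103). Of 8 immediate early genes of TCF and SRF, 6 were higher and none lower, with a median log2 difference of 1.25. EGR1, a zinc finger factor, had intensities of 12266, 17691 and 11481 with CX-4945, against 322.8, 405.9 and 376.7 with DMSO, a rise of 37.0-fold (limma adjusted p = 9.63e-09). IER2 (log2 difference 2.87, limma adjusted p = 3.39e-06) and the AP-1 gene JUNB (1.61, limma adjusted p = 7.81e-04) rose, with DMSO values below background. FOS and EGR3, which did not pass, were below background in both groups.

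The beta subunits of GABP did not pass, with log2 differences of 0.35 for GABPB1 (limma adjusted p = 0.151) and -0.35 for GABPB2 (0.217), and GABPB2 was called lower only without CX-4945 replicate 2 (limma adjusted p = 0.0357). Of 11 measured GABP target genes of mitochondria, 1 was higher and 4 lower, with a median log2 difference of -0.13. All 11 lay above background and 6 did not pass, so the share called is not far from the 39.2% of genes above background. TFB2M, a mitochondrial transcription factor, had intensities of 11765, 11642 and 13428 with CX-4945, against 6583, 6210 and 6067 with DMSO, and rose 1.95-fold (limma adjusted p = 2.37e-04). The cytochrome oxidase subunit genes COX8A, COX6C and COX5A fell 2.17-fold, 1.84-fold and 1.67-fold (limma adjusted p = 5.36e-04, 0.00206 and 0.00413). TFAM, which packages mitochondrial DNA, differed by -0.05.

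Of 7 protease and matrix genes known as joint targets of ETS factors and AP-1, 2 were higher and none lower, with a median of 0.17. The collagenase gene MMP1 had intensities of 805.9, 1233 and 730.5 with CX-4945, against 70.1, 75.4 and 57.9 with DMSO, all DMSO arrays being below background (log2 difference 3.74, limma adjusted p = 2.80e-07). The protease inhibitor gene TIMP1 rose 1.61-fold (limma adjusted p = 0.00122). MMP3, PLAU and the urokinase receptor gene PLAUR gave log2 differences of 0.17, 0.14 and 0.57 and did not pass, PLAUR doing so only without DMSO replicate 1 (limma adjusted p = 0.0349).

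**Figure D4:**
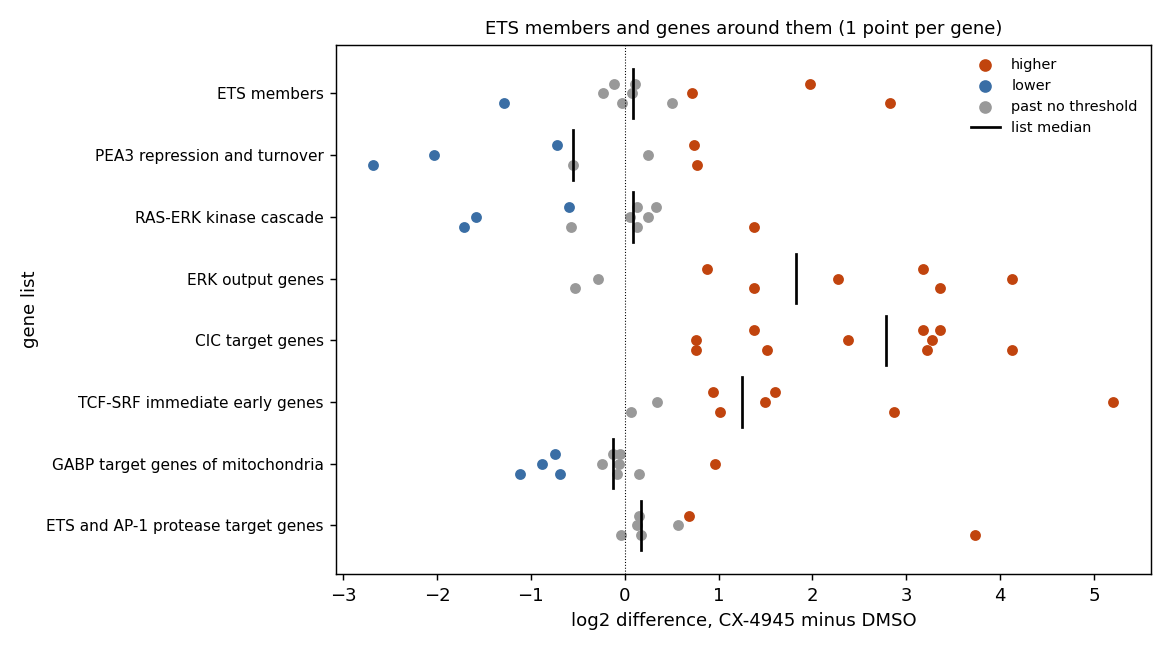
Log2 difference, CX-4945 minus DMSO (horizontal axis), of each gene (1 point) in the 10 ETS members and in the lists around them (rows); colour gives the call by limma and the black bar the list's median. The ERK output genes and the CIC targets lie mostly to the right of 0, with medians of 1.82 and 2.78, while the ETS members spread from -1.28 to 2.83.

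The genes whose pattern over the 6 arrays was closest to a PEA3 gene were sought among 17322 other genes above background in at least 1 group, by the root mean square difference of log2 values centred on each gene's mean. For ETV5 these were NID1 (0.07), a basement membrane gene, PMEPA1 (0.12) and DHRS9 (0.14), with log2 differences of 2.71, 2.84 and 2.87. The DMSO means of PMEPA1 (log2 6.30) and DHRS9 (3.90) lay below the background of 6.40. Both entered the search only through their CX-4945 values, and their folds depend on the background floor. For ETV1 they were PTER (0.03), PLS3 (0.05) and DLD (0.06), with log2 differences of -1.30, -1.29 and -1.31. For ETV4, whose pattern is spread between arrays and not a difference of groups, they were ST3GAL6-AS1 (0.03), BCRP6 (0.03) and KRT34 (0.04). With 6 arrays in 2 groups such likeness is mostly that of an equal fold change.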

How the data were processed

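Values of 6 arrays were analysed as deposited: per the labels' protocols, total RNA was biotin-labelled with a whole-transcript kit, and per the submitters' processing notes the authors used Affymetrix Expression Console. Not given in the sources used here are its settings and the genome build. Deposited values are intensities on a linear scale, taken as normalized by the authors because array medians lay close together. Their log2 was used with no pseudocount. Of 135750 rows 36176 had 1 symbol, 1119 several and 98455 none in the platform table; the row with the highest mean stood for each of 33616 genes, and the 10 members had 1 row each. RefSeq (GRCh38.p14) matched 25516 of the named rows by gene identifier and changed 0 symbols.

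The test of CX-4945 against DMSO was limma 3.58.1 in R 4.3.3 (lmFit, eBayes with an intensity trend, two-sided, Benjamini-Hochberg over all genes, 4 residual degrees of freedom before moderation), after a check on simulated data. Precision is limited by the number of arrays; genes had a median SD of 0.23 with CX-4945 and 0.18 with DMSO. An exact permutation of 3 against 3 arrays cannot go below p = 0.1. Members and lists were chosen with earlier results of these data known. Named were the members, called genes with the 3 highest and 3 lowest differences of each list, all genes of lists of 3 or fewer, called ETS genes and the 3 genes nearest to each PEA3 gene; other list genes were added after their values were seen. Whether the numbers pair the arrays could not be settled with 3 arrays per group. Same-numbered arrays had correlations of deviations of 0.09, 0.09 and -0.04, and the other combinations -0.14 to 0.05. Alternatives were 2 scalings, no trend, 2 filters, 2 rules for rows, the replicate block, array weights and each array left out. No batch could be tested, since the sources used here give no scan dates. Plots were drawn with matplotlib 3.10.9.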

Additional observations from a re-analysis of the deposited data

How the results depend on the processing

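Of the 10 ETS members, 9 kept their side of the threshold under every alternative run (147 of 148 values over the members), and the called ones kept their direction. Uncalled members did not all do so: ETS1 ranged from -0.18 to 0.30, ELK1 from -0.15 to 0.23 and GABPA from -0.22 to 0.21 (log2). ETS1 had values in 13 of 15 alternatives, since both filters removed it. The exception was ELK3, which passed with array weights (log2 difference 0.60, adjusted p 0.0392). On the log2 scale, ETV5 ranged from 2.70 to 2.91, ELK4 from 0.59 to 0.80 and ETV1 from -1.42 to -1.05, and ETS2 was 1.79 or more. The change of the PEA3 mean against the other members ranged from -0.02 to 0.06. Over all genes, 3469 were higher and 4196 lower. With all 135750 rows tested, 8421 rows were higher and 4978 lower, so the balance turned toward higher. These are counts of rows, most of them without a symbol, and not of genes. Scaling moved the centre of all genes: their median difference (log2) was -0.09 when quantiles were equalized, giving 2624 higher and 5271 lower genes, and -0.11 when array medians were, giving 2539 and 5291. On the deposited scale it was 0.02, with 3469 and 4196. Under those scalings the median of the 10 members was -0.01 and -0.04, against 0.09, and that of the RAS-ERK cascade also changed sign (-0.02 and -0.04, against 0.09). The replicate block, which rests on numbers that may not pair the arrays, gave 3705 higher and 4353 lower genes and changed no call of a member. Signal limits ETS1, which lay below background, and the folds of genes that start below it.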
